A study of Schizosaccharomyces pombe with 12 samples.

Results

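RNA polymerase I (Pol1), RNA polymerase II (Pol2) and RNA polymerase III (Pol3) were followed through the mRNAs of their subunits in fission yeast (Schizosaccharomyces pombe) cells moved from a rich to a defined medium. The members were the coding genes named rpa, rpb or rpc with a number, or annotated as part of a DNA-directed RNA polymerase, together with maf1, which encodes the repressor of Pol3. These were 32 of the 6988 features in the tables, of which 5156 were coding. Of the 31 subunit genes, 7 were of Pol1 alone, 2 were shared by Pol1 and Pol3, 5 were shared by all 3 enzymes, 7 were of Pol2 alone and 10 were of Pol3 alone, which gave 14 subunits for Pol1, 12 for Pol2 and 17 for Pol3. All 32 members passed the filter on low values at every time, with averages between 455 and 10066.

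The 12 libraries were of poly(A)+ RNA from the wild-type h- strain AGP72, 3 libraries in each of 4 groups. The 0 h group was log-phase culture in YES, a yeast extract medium with supplements. The 2 h, 4 h and 8 h groups were taken after transfer of such cultures to ePMGT(+PO4), a defined minimal glutamate medium with thiamine that holds phosphate, and the study describes all its strains as leu1-32 ura4-D18 his3-D1 with either ade6-m210 or ade6-m216. No culture was kept in YES for the same hours, so the change of medium cannot be told apart from the handling of the cells and the time itself.

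A yeast cell divides its nuclear transcription between these enzymes. Pol1 makes the large ribosomal RNAs in the nucleolus, Pol2 makes mRNAs and many noncoding RNAs, and Pol3 makes tRNAs, 5S ribosomal RNA and other small RNAs. The enzymes are built alike, around a pair of large catalytic subunits on an assembly platform, with a stalk and with peripheral subunits that aid initiation or RNA cleavage. Some small subunits belong to all of them, and the making of Pol1 and Pol3 products is the main task of transcription in a growing yeast cell. Since the genes for all subunits are themselves transcribed by Pol2, poly(A)+ RNA-seq reads their mRNAs and says nothing of how much enzyme is present or active.

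The tables give 1 average per group, the read count after the authors' scaling for library depth, and no value per library. A log2 ratio was therefore formed from the averages, and its standard error (SE) was rebuilt from the spread that the deposited standard errors imply. A gene rose or fell where a Wald test passed at a Benjamini-Hochberg adjusted p of 0.05 or less over all features tested. The sums of the averages ranged from 16787779 to 17640966, so groups differed little in scaled depth. Each average is a share of the poly(A)+ RNA of a library, and less mRNA per cell of every gene cannot be told apart from no change. The deleted marker gene ura4 was listed at 0 at all 4 times. The marker his3, carried as the his3-D1 allele, was listed at 281, 212, 163 and 201.

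The subunit mRNAs moved by enzyme. By 8 h all 7 mRNAs of Pol1 alone and both mRNAs shared by Pol1 and Pol3 had fallen, 8 of the 10 of Pol3 alone and 4 of the 5 shared by all 3 enzymes had fallen, and 0 of the 7 of Pol2 alone had. At 8 h 21 of the 32 members fell, against 23.7% of all features tested, and 2 rose, against 26.3%. The members' median log2 ratio was -0.27, where the median of all 6144 features tested was 0.02. No member reached a 2-fold change against 0 h, a change that 2.41%, 2.64% and 4.61% of features made at 2 h, 4 h and 8 h.

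**Figure D1:**
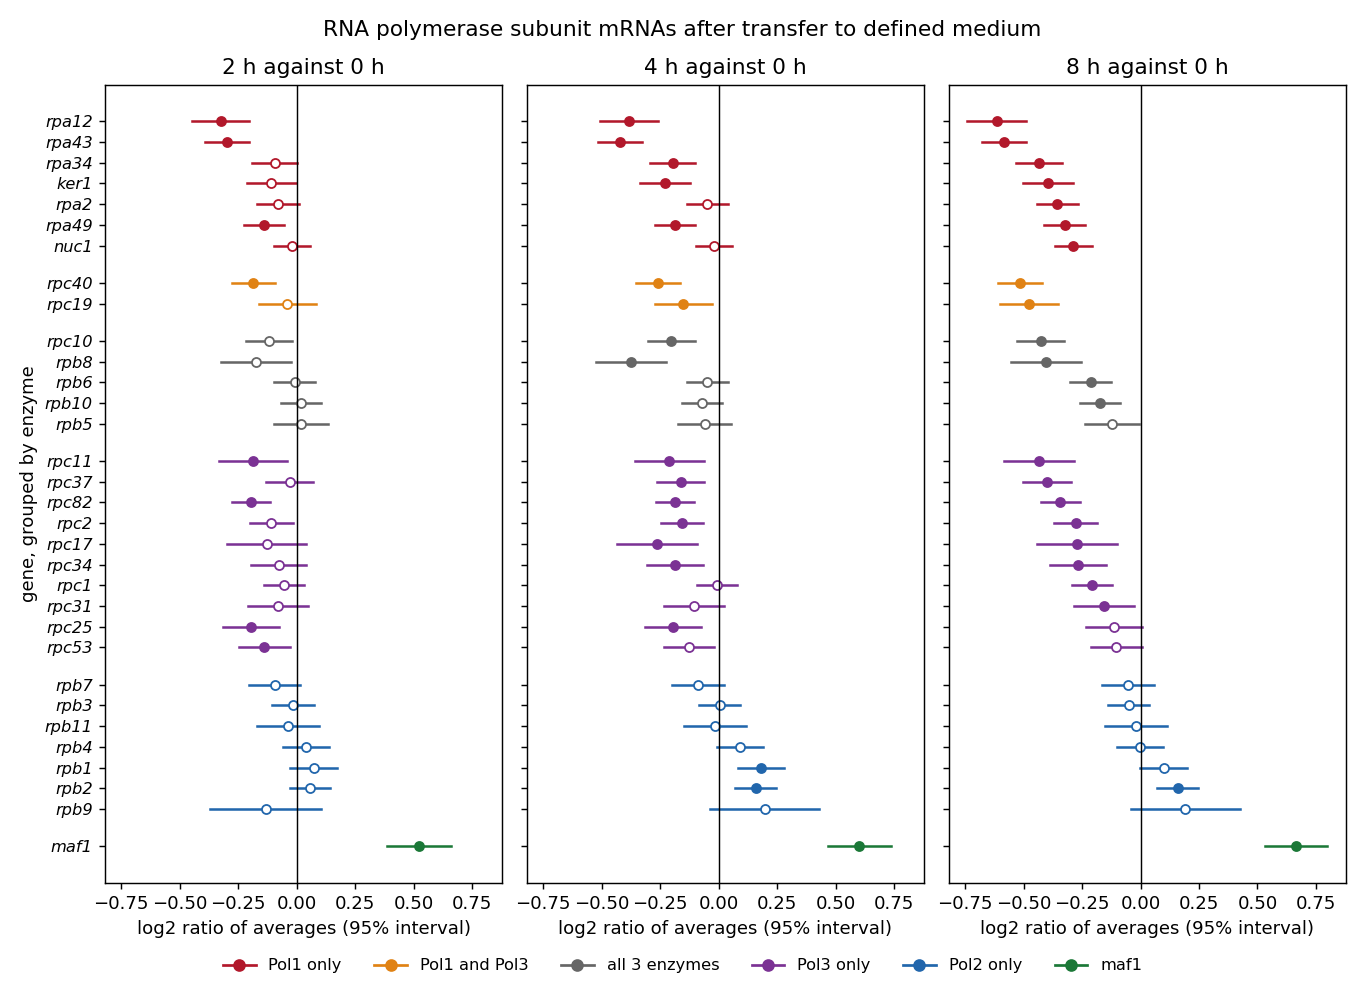
Log2 ratio of the group average at 2 h, 4 h and 8 h to that at 0 h (horizontal axis) for each of the 32 members, grouped by enzyme; lines are 95% intervals and filled points passed the Wald test at an adjusted p of 0.05. At 8 h every point of Pol1 alone lies between -0.62 and -0.29, while those of Pol2 alone lie between -0.05 and 0.19.

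At 2 h the change was small: 8 members fell (15.1% of features fell) and 1 rose (18.2% rose). At 4 h 16 members fell (17.8% of features) and 3 rose (21% of features). Of the 23 members that fell at any time, 8 had fallen by 2 h, a further 9 fell first at 4 h and 6 fell first at 8 h. Only 6 were below the threshold at all 3 times, and these were rpa12, rpa43, rpa49, rpc40, rpc11 and rpc82. With Benjamini-Yekutieli adjustment, doubled dispersion or a t distribution on 8 degrees of freedom the members that fell numbered 4 at 2 h and 10 at 4 h, and rpa49 at 2 h and rpc11 at 2 h and 4 h were not among them. Averages rescaled to equal sums over coding features gave 6 that fell at 2 h and 22 at 4 h. The summed averages of the 7 mRNAs of Pol1 alone stood at 92.6%, 90.9% and 76.9% of their 0 h sum at 2 h, 4 h and 8 h. Those of Pol2 alone stood at 102%, 108% and 105%, and those of Pol3 alone at 92.7%, 90.7% and 83.6%. The averages are not divided by length, so the genes with the most reads weigh most in these sums. The median log2 ratio of Pol2 alone at 8 h was -0.002, with 4 of the 7 below 0 and 3 above.

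At 2 h the lowest log2 ratios of any subunit were those of rpa12 and rpa43, both of Pol1 alone. Rpa43 is a subunit of the Pol1 stalk, where the initiation factor Rrn3 docks, and rpa49 encodes a subunit of the heterodimer that resembles the Pol2 factor TFIIF. Rpb1 is shown beside them as a Pol2 counterpart that did not fall, and maf1 as a gene that rose. Members that move together may be read beside their promoters. The examples do not follow the order of ratios: rpa49 stood at a log2 ratio of -0.14 at 2 h, and rpa12 is not shown. The 250 bases upstream of the annotated transcript start are printed for rpa43, rpa49, rpb1 and maf1. They come from RefSeq, build ASM294v3, at chrII:4001244-4001493 (- strand), chrI:3927280-3927529 (- strand), chrII:1590890-1591139 (+ strand) and chrI:3009379-3009628 (- strand), each written 5′ to 3′ along the gene. Capitals mark matches, on either strand, to 4 motifs searched in these windows:
rpa43: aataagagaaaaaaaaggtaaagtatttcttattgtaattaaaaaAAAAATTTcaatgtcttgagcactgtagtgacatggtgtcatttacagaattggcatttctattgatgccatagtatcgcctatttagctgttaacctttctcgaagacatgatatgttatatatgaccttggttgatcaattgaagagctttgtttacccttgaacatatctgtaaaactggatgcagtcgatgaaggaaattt
rpa49: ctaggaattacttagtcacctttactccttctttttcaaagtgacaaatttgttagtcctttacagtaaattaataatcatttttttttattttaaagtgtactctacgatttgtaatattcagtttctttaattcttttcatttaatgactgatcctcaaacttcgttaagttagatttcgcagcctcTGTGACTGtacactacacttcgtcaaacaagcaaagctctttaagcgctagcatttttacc
rpb1: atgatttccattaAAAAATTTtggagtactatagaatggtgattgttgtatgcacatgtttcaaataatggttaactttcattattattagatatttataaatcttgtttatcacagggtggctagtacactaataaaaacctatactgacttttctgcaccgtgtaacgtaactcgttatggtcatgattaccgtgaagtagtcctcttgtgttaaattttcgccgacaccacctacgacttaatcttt
maf1: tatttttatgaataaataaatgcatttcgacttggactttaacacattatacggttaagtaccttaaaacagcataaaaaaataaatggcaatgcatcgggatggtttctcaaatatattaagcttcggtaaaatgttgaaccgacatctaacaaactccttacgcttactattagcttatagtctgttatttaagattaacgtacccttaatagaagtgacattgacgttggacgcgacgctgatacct

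The motifs were HomolD (CAGTCACA), a promoter element of fission yeast ribosomal protein genes, HomolE (ACCCTACCC), which accompanies it, and the elements known from budding yeast ribosome biogenesis genes as PAC (GATGAG) and RRPE (AAAAATTT). HomolD stood in the window of 1 of the 32 members, rpa49, where its reverse form began 61 bases before the start, and in 2.62% of 5106 promoters of the same length. HomolE was in none of the members' windows and in 1.27% of promoters. PAC was in 2 windows, those of rpa12 and rpb11 (6.85% of promoters). RRPE was in 6, those of nuc1, rpa43, rpb1, rpb4, rpc11 and rpc10 (13.6% of promoters), so it stood before genes that fell and before genes that did not. Letters that match are a description and not a site in use.

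Within Pol1, rpa12, rpa43 and rpa49 passed the test from 2 h on, ker1 and rpa34 from 4 h and the catalytic subunits at 8 h, an order of calls in which the differences between genes were not tested. The averages of rpa43 were 2999.6, 2442, 2241 and 2002 at 0 h, 2 h, 4 h and 8 h, each lower than the last. Its log2 ratio to 0 h was -0.30 (SE 0.048) at 2 h and -0.58 (SE 0.0487) at 8 h, a loss of 33.3% (adjusted p 1.39e-31 by the Wald test). Rpa12, the subunit related to the cleavage factor TFIIS, had averages of 1399, 1117, 1072 and 913, with most of the 8 h loss already present at 2 h. Its log2 ratio was -0.32 (SE 0.0626) at 2 h and -0.62 (SE 0.0637) at 8 h (Wald adjusted p 8.56e-21), and only 5.05% of all features tested had a lower ratio at 8 h.

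Ker1, the stalk partner of Rpa43, followed more slowly, with averages of 1667, 1546, 1422 and 1266 and a log2 ratio of -0.40 (SE 0.0547) at 8 h (Wald adjusted p 4.05e-12). The TFIIF-like pair behaved alike at the end of the course. Averages of rpa34 were 1953, 1831, 1705 and 1447, a log2 ratio of -0.43 (SE 0.05) at 8 h (Wald adjusted p 7.65e-17). The averages of rpa49 were 3845, 3488, 3376 and 3069.7, a log2 ratio of -0.32 (SE 0.0438) at 8 h (Wald adjusted p 1.33e-12), and rpa49 alone of the pair had fallen by 2 h.

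The catalytic subunits of Pol1 held their level to 4 h and then fell. Nuc1, the largest subunit, had averages of 6670.4, 6577, 6579 and 5464. Its log2 ratio to 0 h was -0.02 (SE 0.04) at 4 h and -0.29 (SE 0.0403) at 8 h, and the drop from 4 h to 8 h passed the test by itself (log2 ratio -0.27, Wald adjusted p 1.65e-09). Rpa2, the second largest, had averages of 7578, 7173, 7332 and 5925, with a log2 ratio of -0.05 (SE 0.0454) at 4 h and of -0.36 (SE 0.0457) at 8 h (Wald adjusted p 9.19e-14). At 2 h and 4 h neither gene passed the test (rpa2 did at 4 h, at a log2 ratio of -0.11, with averages rescaled to equal sums over coding features), and their 95% intervals at 4 h, -0.10 to 0.06 for nuc1 and -0.14 to 0.04 for rpa2, lie above that of rpa43 (-0.52 to -0.33), while that of rpa2 overlaps those of rpa49 (-0.27 to -0.10), rpa34 (-0.29 to -0.10) and ker1 (-0.34 to -0.12).

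The genes of the assembly platform shared by Pol1 and Pol3 fell too, to log2 ratios at 8 h within the range of those of Pol1 alone. Rpc40 and Rpc19 form that platform, as Rpb3 and Rpb11 do in Pol2. The averages of rpc40 were 4045, 3557, 3382 and 2828, a log2 ratio of -0.52 (SE 0.0477) at 8 h (Wald adjusted p 6.94e-26), and it had fallen already at 2 h (log2 ratio -0.19). Rpc19 started later, with averages of 1995, 1939.7, 1796 and 1433 and a log2 ratio of -0.48 (SE 0.0633) at 8 h (Wald adjusted p 5.19e-13). The counterparts in Pol2 did not pass the test at any time. Rpb3 had averages of 2618, 2592, 2627 and 2528 (log2 ratio -0.05 at 8 h, 95% interval -0.14 to 0.04). Rpb11 had averages of 1543, 1504, 1525 and 1524 (log2 ratio -0.02 at 8 h, 95% interval -0.15 to 0.12). Each interval lies above those of rpc40 (-0.61 to -0.42) and rpc19 (-0.60 to -0.35), though the difference between genes was not tested.

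**Figure D2:**
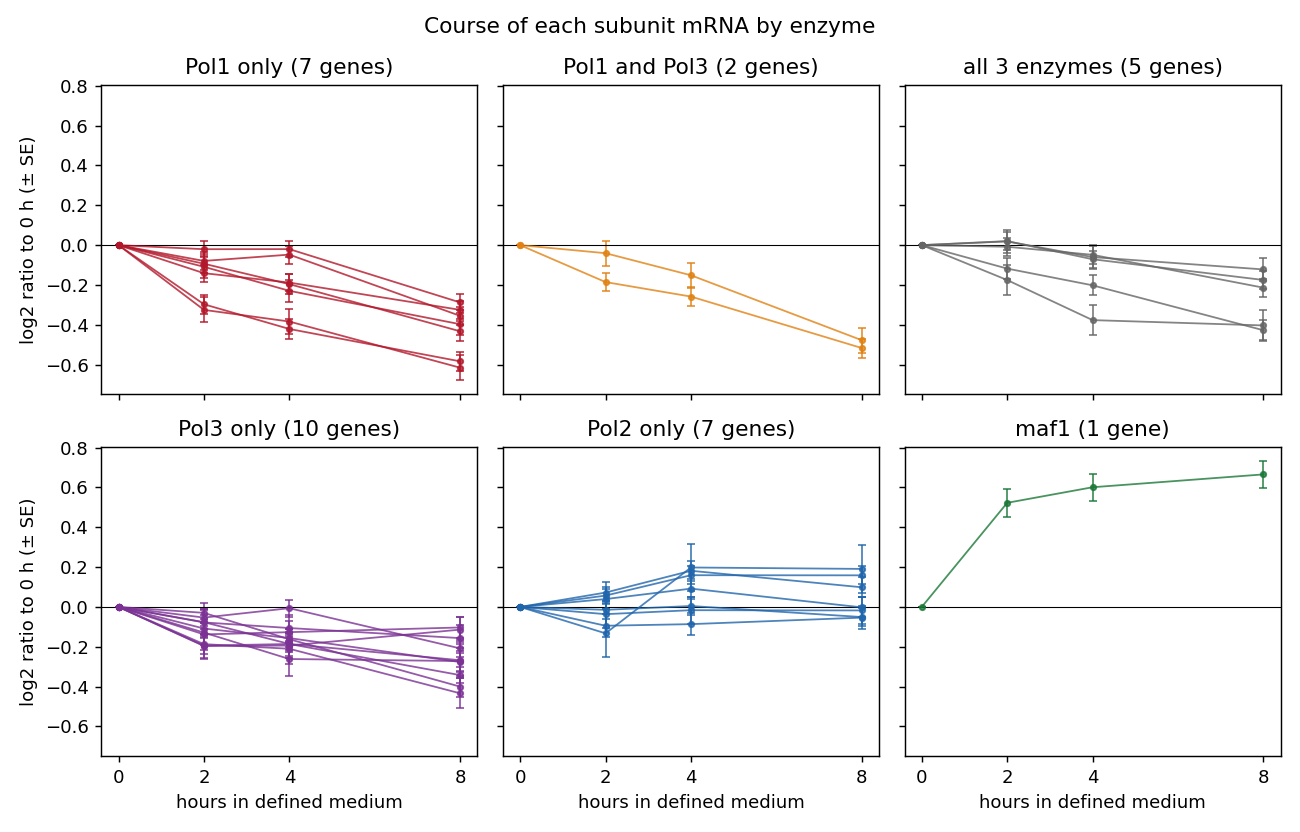
Log2 ratio to 0 h (vertical axis, ± SE) against hours in defined medium for each member, in 6 panels by enzyme; each line is 1 gene. Lines of Pol1 alone and of the 2 genes shared with Pol3 descend to 8 h, those of Pol2 alone stay between -0.13 and 0.20, and maf1 rises to 0.52 at 2 h and 0.67 at 8 h.

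Of the 10 genes of Pol3 alone 4 fell at 2 h (15.1% of all features), 7 at 4 h (17.8%) and 8 at 8 h (23.7%). Their median log2 ratio was -0.12, -0.17 and -0.27 at these times, beside -0.11, -0.20 and -0.40 for the 7 of Pol1 alone, a difference that was not tested. Under Benjamini-Yekutieli adjustment, doubled dispersion or a t distribution the only call of Pol3 alone kept at 2 h was that of rpc82. Those kept at 4 h were rpc2 and rpc82. Rpc1 is the largest subunit. Its averages were 2835, 2732, 2823 and 2454, so that, like nuc1, it held to 4 h (log2 ratio -0.01, SE 0.0429) and was lower at 8 h (log2 ratio -0.21, SE 0.0434, Wald adjusted p 7.43e-06). Rpc2, the second largest, had averages of 2385, 2212, 2139.8 and 1969 and had fallen by 4 h (log2 ratio -0.16 at 4 h and -0.28 at 8 h).

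Rpc11, the RNA cleavage subunit that is the Pol3 relative of Rpa12, had the lowest log2 ratio at 8 h of the genes of Pol3 alone. Its averages were 1031, 905, 891 and 763, a log2 ratio of -0.43 (SE 0.0759) at 8 h (Wald adjusted p 7.11e-08). Its neighbours in the enzyme are Rpc37 and Rpc53, the TFIIF-like pair that works in termination and reinitiation. Of this pair rpc37 alone passed at 8 h, and the difference between them was not tested. The averages of rpc37 were 1917, 1878, 1713 and 1453, a log2 ratio of -0.40 (SE 0.0527) at 8 h (Wald adjusted p 3.6e-13). Those of rpc53 were 1437, 1306, 1316 and 1338, and its log2 ratio of -0.10 (SE 0.0549) at 8 h did not pass. With ratios centred on the coding median rpc53 did fall at 8 h (log2 ratio -0.13). It had also fallen at 2 h (log2 ratio -0.14, Wald adjusted p 0.0386), a call that was lost under 5 alternatives besides the minimum fold.

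The initiation trimer of Pol3 is formed by Rpc82, Rpc34 and Rpc31. Rpc82 had averages of 2089.5, 1826, 1837 and 1648, a fall by 2 h (log2 ratio -0.19, SE 0.0415) that deepened at 8 h (log2 ratio -0.34, SE 0.042, Wald adjusted p 4.66e-15). Rpc34 fell from 4 h on and stood at a log2 ratio of -0.27 at 8 h. Rpc31 passed the test only at 8 h, at a log2 ratio of -0.16 (Wald adjusted p 0.0356), a call that was lost with a t distribution on 8 degrees of freedom, with Benjamini-Yekutieli adjustment and with the dispersion doubled. Averages rescaled to equal sums over coding features made rpc31 fall at 4 h as well (log2 ratio -0.16). The stalk of Pol3 is made of Rpc17 and Rpc25. Rpc17 had fallen by 4 h (log2 ratio -0.26) and stayed there (log2 ratio -0.27 at 8 h). Rpc25 was lower at 2 h (log2 ratio -0.20) and 4 h (log2 ratio -0.19) and did not pass at 8 h (log2 ratio -0.11, 95% interval -0.23 to 0.01). The calls of rpc34 and rpc17 at 4 h and of rpc25 at 2 h and 4 h were lost with Benjamini-Yekutieli adjustment, doubled dispersion or a t distribution, and that of rpc17 at 8 h with doubled dispersion.

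The Pol2 genes stayed near their 0 h level, and what passed the test went up. Rpb1 is the largest subunit, whose carboxy-terminal domain of repeated heptads is phosphorylated through the transcription cycle. Its averages were 8876, 9331, 10066 and 9504. The log2 ratio was 0.18 (SE 0.0506) at 4 h (Wald adjusted p 0.00159) and 0.10 (SE 0.0506) at 8 h, where it did not pass (Wald adjusted p 0.0924). Rpb2, the second largest subunit, had averages of 5342, 5557, 5965 and 5962 and rose at both 4 h and 8 h (log2 ratio 0.16 at each, Wald adjusted p 0.00109 at 8 h). With averages rescaled to equal sums over coding features the rise of rpb2 at 4 h did not pass, at a log2 ratio of 0.10.

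Rpb4 and Rpb7 form the stalk of Pol2 and neither changed beyond error. Rpb4 had averages of 2085, 2143, 2223 and 2082 and a log2 ratio at 8 h with a 95% interval of -0.10 to 0.10. Rpb7 had averages of 1761, 1649, 1658 and 1696, with an interval of -0.16 to 0.06. Of all features tested 15.1%, 17.8% and 23.7% fell at 2 h, 4 h and 8 h. Of the 7 genes of Pol2 alone 0 fell by the Wald test at any of these times, and 0 did at an unadjusted p under 0.05. The exception among the alternatives was rpb7, which fell at 4 h (log2 ratio -0.14) with the averages rescaled to equal coding sums. Rpb9, the TFIIS-related subunit and so the relative of Rpa12 and Rpc11, had the lowest averages of the 31 subunits and the least precise ratios, with averages of 549, 500.5, 629 and 626. Its log2 ratio to 0 h was 0.19 (SE 0.119) at 8 h and did not pass. Its rise from 2 h to 4 h (log2 ratio 0.33, SE 0.12, Wald adjusted p 0.0369) passed, but not with equal coding sums, Benjamini-Yekutieli adjustment, doubled dispersion or a t distribution.

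The 5 subunits common to all enzymes did not move as a block. Rpc10, a small zinc-binding subunit, had averages of 2580.4, 2378, 2244 and 1919, a log2 ratio of -0.43 (SE 0.0513) at 8 h (Wald adjusted p 1.21e-15). Rpb8 had averages of 2058, 1822, 1585 and 1556. Its log2 ratio was -0.38 at 4 h and -0.40 at 8 h (SE 0.0764 at each, Wald adjusted p 7.46e-07 at 8 h). The step of rpb8 from 4 h to 8 h was within error (log2 ratio -0.03, 95% interval -0.18 to 0.12). Rpb6 stood at a log2 ratio of -0.21 and Rpb10 at -0.17 at 8 h, neither having passed at 4 h. Both did fall at 4 h with averages rescaled to equal sums over coding features (log2 ratio -0.11 for rpb6 and -0.13 for rpb10). Rpb5 did not pass at any time against 0 h, with a log2 ratio of -0.12 at 8 h (95% interval -0.24 to -0.01, Wald adjusted p 0.0721).

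Read as whole enzymes, shared subunits included, 13 of 14 Pol1 mRNAs, 14 of 17 Pol3 mRNAs and 4 of 12 Pol2 mRNAs had fallen at 8 h. The share of all features that fell was 23.7%. Those 4 in Pol2 were all of the shared class (rpc10, rpb8, rpb6 and rpb10). The summed averages of the 14 Pol1 genes stood at 78.5% of 0 h at 8 h, those of the 17 Pol3 genes at 81.7% and those of the 12 Pol2 genes at 96.8%. Genes shared between enzymes are counted under each, so these sums are not independent.

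Maf1 is the conserved repressor that binds Pol3 and keeps it from its promoters when nutrients or growth signals fail. Its mRNA was the only member that rose at all 3 times. The averages of maf1 were 455 at 0 h and 654, 690.3 and 722 at 2 h, 4 h and 8 h. The log2 ratio was 0.52 (SE 0.0691) at 2 h (Wald adjusted p 1.04e-12), 0.60 (SE 0.0687) at 4 h and 0.67 (SE 0.0684) at 8 h (Wald adjusted p 4.57e-21), a gain of 58.6% at 8 h. The later steps were within error: the log2 ratio of 4 h to 2 h was 0.08 (95% interval -0.05 to 0.21) and that of 8 h to 4 h was 0.06 (95% interval -0.06 to 0.19). At 8 h 94.5% of all features tested had a lower ratio than maf1.

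Comparing the later times directly leaves out the 0 h libraries and shows when the subunits moved. Between 2 h and 4 h 0 members fell by the Wald test (8.5% of features fell), 6 fell at an unadjusted p under 0.05 and 1 rose (rpb9; 8.47% of features rose). With the averages rescaled to equal sums over coding features 14 members fell in that step, so this count turned on the scaling. Between 4 h and 8 h 16 members fell (14.7% of features) and 0 rose (11.1% of features), 0 also at an unadjusted p under 0.05. These 16 were all 7 of Pol1 alone, both shared by Pol1 and Pol3, 5 of the 10 of Pol3 alone (rpc1, rpc2, rpc11, rpc37 and rpc82) and 2 of the 5 common ones (rpb6 and rpc10). The count fell to 11 with Benjamini-Yekutieli adjustment or equal coding sums, 10 with doubled dispersion and 8 with a t distribution, and that of Pol1 alone to 4, 4, 4 and 3, with ker1, rpa43 and rpa49 lost under each. From 2 h to 8 h 20 members fell (20.7% of features) and 1 rose (rpb9; 19.6% of features). In that span all 14 subunits of Pol1 fell, although rpb5 and rpb8 among them did not with Benjamini-Yekutieli adjustment, doubled dispersion or a t distribution.

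Levels per kilobase set the subunits against each other within a library. On the scale of averages per kb of annotated exon at 0 h, the genes common to all enzymes were the most abundant class (median 5192), followed by those shared by Pol1 and Pol3 (median 3231), those of Pol1 alone (2081), of Pol2 alone (1673) and of Pol3 alone (965). Rpb10 (6173 per kb), rpb6 (5382 per kb) and rpc10 (5192 per kb) headed the list, and rpa43 came next at 4958 per kb. Maf1 stood last at 330.3 per kb and rose to 524 per kb at 8 h. The spread within an enzyme was wide, 3.99-fold between rpa43 and nuc1 in Pol1 alone and 4.51-fold between rpc11 and rpc25 in Pol3 alone, where the annotated transcript of rpc25 is long. By 8 h the median of Pol1 alone (1531 per kb) had dropped under that of Pol2 alone (1726 per kb). The annotated transcripts of rpb3 (4014 bases for a coding length of 894) and rpc25 (2138 bases for 612) are long, so their values per kb of exon are low, at 652 and 482. Per kb of coding length they were 2929 and 1683. On that length the 0 h medians of Pol1 alone (3009, rpa49) and of Pol2 alone (2929, rpb3) lay close together. The gap between these classes therefore depended on the length used.

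**Figure D3:**
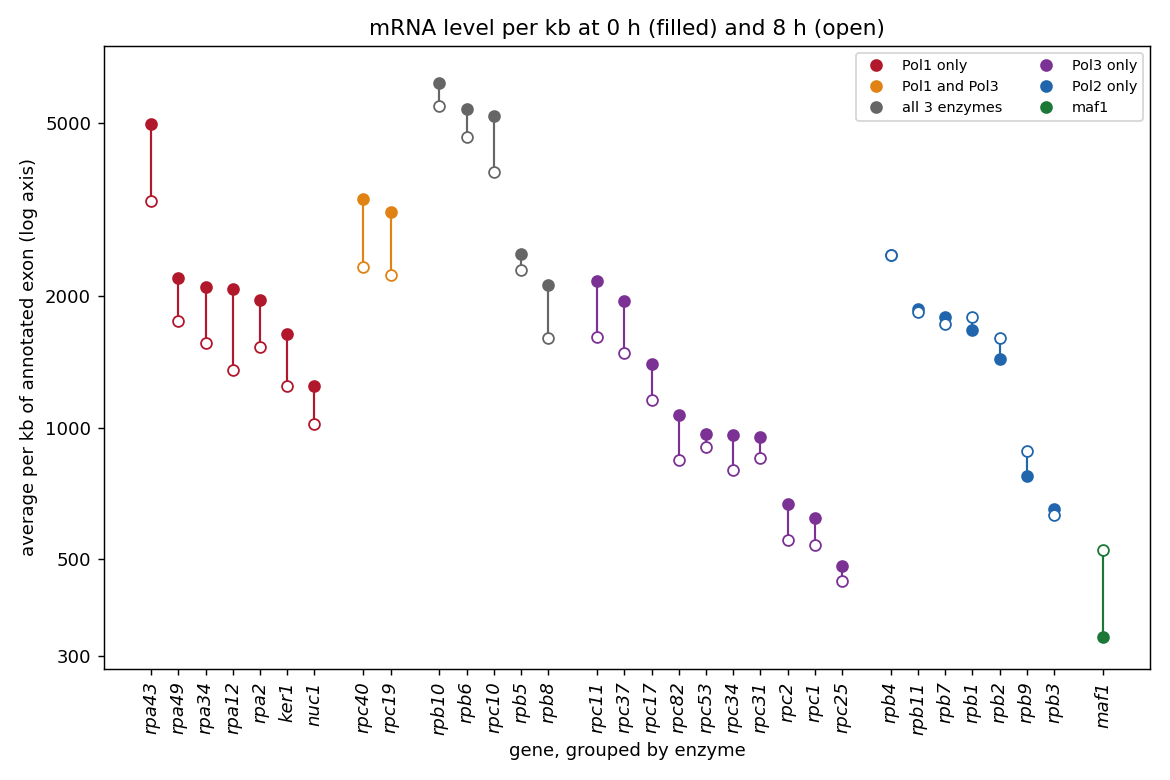
Average per kb of annotated exon (vertical log axis) for the 32 members, grouped by enzyme and ordered by the level at 0 h; filled points are 0 h and open points 8 h. Open points lie under filled points for every gene of Pol1 alone, while for rpb1, rpb2, rpb9 and maf1 they lie above.

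Some member transcripts share ground with other features. By the RefSeq annotation 14 of the 32 members overlap another feature of the tables, 12 of them one on the opposite strand. The library kit marks strand, but no source used here states whether the reads were counted by strand, and reads of a gene and of its opposite neighbour may have been shared. The Pol1 pair of rpa34 and rpa49 and the Pol3 gene rpc17 lie wholly within such overlaps. Opposite rpc17, mpa1 stood at 128% of the rpc17 average and did not pass at any time (log2 ratio -0.09 at 8 h). Opposite rpb7 of Pol2, over 1050 bases, tcb3 stood at 290% of the rpb7 average. The tcb3 average rose at 2 h, 4 h and 8 h (log2 ratio 0.17, 0.12 and 0.13). Opposite rpa34, sme1 stood at 91.8% of its average, fell at 4 h (log2 ratio -0.14, Wald adjusted p 0.0177) as rpa34 did, and did not pass at 8 h (log2 ratio -0.10), and opposite rpa49, sec67 stood at 47.7% and did not pass at any time (log2 ratio 0.09 at 8 h). The antisense RNA rpa43-antisense-1 was listed at 141 at 0 h, 4.71% of the level of rpa43, and fell with it (log2 ratio -0.66, SE 0.167, at 8 h, Wald adjusted p 0.000261). The RNA SPNCRNA.1021, opposite rpb9, stood at 42.8% of the rpb9 average and rose (log2 ratio 0.38, SE 0.0962, at 8 h), and mid2, which overlaps rpb9 by 64 bases on the same strand at a far higher average (9206 at 0 h), rose too (log2 ratio 0.35). The other RNA named as antisense to a member, SPCC330.13-antisense-1 of rpc37, was listed at 44.1 at 0 h and did not pass at 8 h (log2 ratio -0.22). Opposite rpb8, SPNCRNA.1496 fell with it (log2 ratio -0.59 at 8 h). Opposite rpb3, trp3 fell (log2 ratio -0.49) where rpb3 did not change beyond error. The part of these neighbours in the members' values was not tested.

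The factors that work with the enzymes were read from 5 lists, of which 111 genes were matched. At 8 h 26.3% of all features rose and 23.7% fell, shares beside which the counts that follow are to be read. Of the 9 Pol1 factors 1 rose and 2 fell at 8 h (median log2 ratio 0.08). The fallers were rrn3 and rrn11 (log2 ratio -0.15), the latter named after its value was seen, and rrn3, the factor that makes Pol1 competent to initiate, had averages of 3061, 3209, 2909 and 2626 and a log2 ratio of -0.22 (SE 0.0495) at 8 h. Spp27, of the upstream activation factor, rose to a log2 ratio of 0.19. Of the 12 Pol3 factors 3 rose and 1 fell at 8 h (median 0.07), and sfc7 was listed at 0 throughout and not tested. The TFIIIB subunits did not pass at 8 h, brf1 at a log2 ratio of 0.11 and bdp1 at -0.04, though brf1 had risen at 2 h and 4 h (log2 ratio 0.19 at each). Among the same factors sfc3, of TFIIIC, rose (log2 ratio 0.18) and sla1, the La protein that binds new Pol3 transcripts, fell to a log2 ratio below that of any subunit (-0.66, SE 0.0438, Wald adjusted p 2.78e-49).

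The TATA-binding protein serves all enzymes. Its gene tbp1 had averages of 7651, 9741, 9108 and 7563, a rise at 2 h (log2 ratio 0.35, Wald adjusted p 2.35e-17) that was gone by 8 h (log2 ratio -0.02). Of 54 Pol2 general factors and Mediator subunits 11 rose and 2 fell at 8 h (median 0.04), with tfb6 (log2 ratio 0.36) and the kinase gene mcs6 (0.33), both of TFIIH, the largest of those that passed. Of 29 genes for Pol2 elongation and for its carboxy-terminal domain 10 rose and 5 fell (median 0.08), led by tpr1 of the Paf1 complex (log2 ratio 0.26) and lsg1 of a kinase complex that acts on that domain (log2 ratio -0.24). Of 10 genes for polymerase assembly and import 0 rose at 8 h (0 also at an unadjusted p under 0.05) and 3 fell (23.7% of all features fell), fet5, a GTPase gene with a role in polymerase localization (log2 ratio -0.19), the chaperone gene hsp90 (-0.18) and rvb1 (-0.17), the last named after its value was seen. At 2 h hsp90 stood lower, at a log2 ratio of -0.62 (SE 0.0496, Wald adjusted p 2.44e-34), and at 4 h it did not pass (log2 ratio 0.06). The medians of all 5 lists, from -0.12 to 0.08, are those of genes chosen with earlier results of these data known and are a description.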

How the data were processed

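Poly(A)+ RNA of 12 libraries, 3 in each of 4 groups at 0 h, 2 h, 4 h and 8 h, was made with a stranded TruSeq kit and sequenced in pairs. Per the submitters' processing notes and the study's methods, reads were aligned with HISAT2 2.1.0, handled with SAMtools, counted over exons with HTSeq 0.10.0 on build ASM294v2 and compared with DESeq2. The deposited signal values are group averages that the authors made from read counts divided by size factors, 1 average per group, beside an average over all libraries of their fit. The deposited log2 standard errors, which the authors' fit gave for each later time against 0 h, were used only to recover each feature's dispersion. The fold changes, test statistics and p-values in the same tables are the authors' own comparisons and were not used. The all-library average showed that their fit held 21 libraries, and the 9 further ones, not analysed here, also bear on the dispersions.

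Because the tables hold averages, the count test planned per library was replaced by a Wald test. The log2 ratio of 2 averages was divided by a standard error rebuilt from a negative binomial variance, with the median dispersion of the 3 tables and 3 libraries a group. The ratio of rebuilt to deposited error at 8 h had its 1st percentile at 0.990 and its 99th at 1.01. Since the dispersions were recovered from those same errors, a ratio near 1 is no test of them. Features with an average of 10 or more in either group were tested, and p-values were adjusted by Benjamini-Hochberg over all of them, with a threshold of 0.05. The standard error of a member's average was 1.96% to 5.92%, and of its log2 ratio to 0 h 0.0400 to 0.120. The p-values rest on the dispersions implied by the authors' fit of 21 libraries. The spread between the 3 cultures of a group, which the study calls biological replicates, could not be measured from the averages. The test was tested on simulated data drawn with the same dispersions that it was given, which does not check those dispersions. Every member is named, with full values where a log2 ratio reached 0.3 in size and for the largest subunits. Genes of the 5 lists are named where they passed at 8 h with the 2 log2 ratios of their list that were largest in size, and rrn3, brf1, bdp1 and tbp1 at any value. RNAs named antisense to a member are given with it. The members and lists were chosen with earlier results of these data known. Of 128 list names 9 were not matched, and 2 (rtf1 and spn1) were dropped once product names showed another gene. Promoters, exon lengths and overlaps come from RefSeq, build ASM294v3, matched by identifier for all 32 members. Its coordinates were not mixed with those of ASM294v2. Alternatives were another scaling, filter, dispersion, reference distribution, adjustment and fold. Python 3.11.15, NumPy 2.4.6, SciPy 1.17.1, pandas 2.3.3 and matplotlib 3.10.9 were used.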

Additional observations from a re-analysis of the deposited data

Results flagged for a closer look

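The change against 0 h differed between 2 h and 8 h for 21 of the 32 members, by the Wald test of 8 h against 2 h adjusted over all features. In the same test 20.7% of all features fell and 19.6% rose. The values below are log2 ratios of 8 h to 2 h. For Pol1 alone they were rpa34 (-0.34), rpa12 (-0.29), ker1 (-0.29), rpa43 (-0.29), rpa2 (-0.28), nuc1 (-0.27) and rpa49 (-0.18). For the platform shared by Pol1 and Pol3 they were rpc19 (-0.44) and rpc40 (-0.33). For Pol3 alone they were rpc37 (-0.37), rpc11 (-0.25), rpc34 (-0.19), rpc2 (-0.17), rpc1 (-0.15) and rpc82 (-0.15). For the subunits common to all enzymes they were rpc10 (-0.31), rpb8 (-0.23), rpb6 (-0.21), rpb10 (-0.20) and rpb5 (-0.14). The lone value above 0 was that of rpb9 in Pol2 (0.32). The 2 ratios share the 0 h libraries, which drop out of this test.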

How the results depend on the processing

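No paired analysis was possible because the tables hold averages per group, so that the replicate block, the leaving out of each replicate and other count tools were not run. No member changed direction against its call under any alternative run. Of the 23 members called at 8 h against 0 h, 21 passed under every alternative other than the minimum fold, and rpc17 and rpc31 did not, while rpb5, rpc25 and rpc53 were added by centring on the coding median. The largest shift by a rescaling was -0.07 (log2, 4 h against 2 h).

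With a minimum fold, under which the higher group had to exceed the lower by 25%, the members that fell numbered 1 at 2 h (8 without it), 3 at 4 h (16) and 13 at 8 h (21), with 3 of Pol3 alone and 2 of the common subunits at 8 h, and 1 rose at 4 h and 1 at 8 h. The same minimum left 4 that fell from 2 h to 8 h and 1 from 4 h to 8 h. Benjamini-Yekutieli adjustment gave 4 that fell at 2 h and 10 at 4 h, and 0 that rose from 2 h to 4 h and 0 from 2 h to 8 h. The dispersion doubled, an alternative chosen after seeing the data, gave 4 at 2 h, 10 at 4 h and 10 from 4 h to 8 h, with 0 that rose from 2 h to 4 h and 0 from 2 h to 8 h. A t distribution on 8 degrees of freedom gave 4, 10 and 8 for the same falls and again 0 and 0 for the rises. From 2 h to 4 h, where 0 fell, an average of 100 or more gave 1, centring gave 3 and equal coding sums gave 14, the last with 0 that rose. An average of 100 or more gave 2 that rose from 2 h to 8 h. Without maf1, 0 rose at 2 h and 1 at 8 h. Beyond these constructions the cause was not tested. Precision was lowest for rpb9, whose log2 ratio of 0.20 (SE 0.119) at 4 h did not pass where that of rpb2, 0.16 (SE 0.0444), did.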

Other observations

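Polymerases outside the nuclear set of subunits moved little. The gene rpo41, for the mitochondrial RNA polymerase, stood at a log2 ratio of -0.05 at 8 h and did not pass the Wald test (adjusted p 0.416), while mtf1, for its specificity factor, rose (log2 ratio 0.23, SE 0.0633). The RNA-directed polymerase gene rdp1 did not pass (log2 ratio 0.03). Among genes that work with the enzymes and were in none of the lists, npa3, for an ATPase that binds Pol2, fell (log2 ratio -0.24, SE 0.0501) and rrn6, for a Pol1 initiation factor, rose (log2 ratio 0.21, SE 0.0644). The upstream activation factor gene acr1 was lower at 4 h (log2 ratio -0.26) and did not pass at 8 h (log2 ratio -0.12). These genes were named after earlier results of these data were known.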
